A study of Homo sapiens with 18 samples.

Results

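The replication-dependent histone genes are the clustered genes that supply H1, H2A, H2B, H3 and H4 protein to newly made DNA. They were taken here as every gene of the counts table whose symbol begins with HIST1H, HIST2H, HIST3H or HIST4H, which gave 86 members of 58815 genes, with 25 H2B, 23 H2A, 16 H4, 14 H3 and 8 H1 genes. GENCODE release 44 lists 66 of them as protein-coding and 18 as pseudogenes, and 2, HIST2H2AA3 and HIST2H2AA4, have no entry there. Types follow the symbol. The pseudogene HIST1H1PS2, typed H1 here, is named H3P26 in release 44. RNA-seq compared the members between cells with a hairpin against WDR5, shWDR5, and cells with a control hairpin, shCtrl. MDA-MB-231 is an established line of human breast cancer cells that lack the oestrogen and progesterone receptors and HER2, and the study used 3 lines derived from it: LM (cell line label LM2), BrM and BoM, which were selected in mice for growth in lung, brain and bone. All cells carried a doxycycline (DOX)-inducible hairpin vector, and both hairpin groups received DOX at 1 μg/mL for 3 days. WDR5, an adaptor subunit of several histone methyltransferase complexes, was lowered by 1 hairpin sequence. Each line had 3 shCtrl and 3 shWDR5 libraries from different passages, 18 in all.

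In most cell types these genes are transcribed in S phase, when the coactivator NPAT gathers at the clusters, and their mRNAs do not end in a poly(A) tail. The RNA ends just past a short stem-loop that the stem-loop binding protein SLBP recognises, and a cleavage complex that includes CPSF2 and the endonuclease CPSF3 cuts there. Some members also give polyadenylated RNA that runs past the stem-loop, which is known from differentiated and non-dividing cells. The libraries were made from poly(A)-selected RNA, so a count below is a count of polyadenylated or carried-over histone RNA, not of all histone RNA of the cell.

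A stem-loop, a stem of 6 base pairs around a loop of 4 bases, was found in the GENCODE transcripts of 68 members, among them all 66 protein-coding ones. It is shown for members that differ most in counts and in type, in GRCh38, with the 16 bases of stem and loop in capitals.
HIST1H1C (chr6:26055744-26055759, minus strand): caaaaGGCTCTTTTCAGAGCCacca
HIST1H2BK (chr6:27146366-27146381, minus strand): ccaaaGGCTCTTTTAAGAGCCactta
HIST1H2BJ (chr6:27132321-27132336, minus strand): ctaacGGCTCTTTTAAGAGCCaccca
HIST1H2AC (chr6:26124669-26124684, plus strand): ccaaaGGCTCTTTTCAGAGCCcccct
HIST1H4I (chr6:27139654-27139669, plus strand): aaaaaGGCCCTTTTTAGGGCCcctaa
HIST1H4H (chr6:26285131-26285146, minus strand): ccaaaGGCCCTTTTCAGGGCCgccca
HIST1H3H (chr6:27810516-27810531, plus strand): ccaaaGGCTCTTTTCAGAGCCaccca
HIST1H1B (chr6:27866797-27866812, minus strand): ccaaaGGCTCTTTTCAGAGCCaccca
The 68 stem-loops had 10 different sequences, and 36 members of types H1, H2A, H2B and H3 shared the form seen in HIST1H1C. H4 genes had forms of their own, of which the most frequent, seen in HIST1H4H, was in 10 members. HIST1H1B, which had 0 counts in the 18 libraries, has the same stem and loop as HIST1H1C, the member with the most counts.

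Libraries held 17485841 to 119667013 counts on genes (median 37861544). Counts are given as CPM, a library's count divided by its total in units of 1000000 counts, the total being scaled by edgeR's TMM factor, which was 1.01 to 1.07 in shCtrl and 0.924 to 0.994 in shWDR5 libraries. WDR5 was at 111 to 133 CPM with shCtrl and 20.5 to 24.6 with shWDR5 in LM, 78.9 to 92.1 and 21.3 to 24.0 in BrM, and 86.4 to 88.9 and 13.8 to 22.0 in BoM, with no overlap and log2 fold changes of -2.40, -1.93 and -2.21 (adjusted p = 1.2e-08, 3.7e-07 and 4.5e-08 from edgeR). VIM was at 1457 to 2228 CPM and CD44 at 488 to 775, both among 6 marks of MDA-MB-231. Another of the 6, S100A4, was higher with shWDR5 in LM (log2 fold change 0.41, adjusted p = 0.044 from edgeR) and lower in BrM (-0.47, adjusted p = 0.017), and no other of the 6 was called. The oestrogen receptor gene ESR1 was at 0.128 to 0.530. Of 8 genes of other cell types or subtypes, 4 had enough counts to be tested. The astrocyte gene GFAP was lower with shWDR5 in every line, at 8.58 to 9.84 CPM with shCtrl and 4.48 to 5.52 with shWDR5 in LM, 2.52 to 3.15 and 0.978 to 1.52 in BrM, and 4.55 to 6.10 and 1.61 to 2.36 in BoM, and the endothelial gene PECAM1 was higher in LM, at 2.16 to 2.23 with shCtrl and 3.17 to 4.68 with shWDR5 (log2 fold change 0.73, adjusted p = 0.026 from edgeR). The summed level of the 8 genes was 5.11 to 12.7 CPM in shCtrl and 3.63 to 11.4 in shWDR5 libraries.

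Histone cluster RNA was higher with shWDR5 in all 3 lines. The summed level of the 86 members was 169 ± 14.8 against 399 ± 61.5 in LM, 230.4 ± 22.2 against 484 ± 46.3 in BrM and 261 ± 30.0 against 603 ± 117 in BoM (CPM, mean ± SD, n = 3 libraries each), ratios of 2.36, 2.10 and 2.31. The lowest shWDR5 library was above the highest shCtrl library in each line. A few genes made most of this sum: HIST1H1C held 30.9% of the 240550 member counts, HIST1H1C and HIST1H2BK together 56.5%, and the 6 members with the most counts 88.9%. From bulk RNA, a larger share of cells that express these genes, more RNA per cell and a larger share of the RNA with a poly(A) tail cannot be told apart.

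By type, the summed level of H1 was 52.0 ± 1.43 against 119.6 ± 12.7 in LM, 65.2 ± 5.60 against 149 ± 25.8 in BrM and 89.97 ± 16.7 against 202 ± 54.9 in BoM. H2A was at 29.2 ± 2.43 against 59.3 ± 9.08 in LM, 39.6 ± 1.78 against 74.0 ± 4.07 in BrM and 44.4 ± 3.86 against 99.7 ± 13.6 in BoM. H2B had 67.8 ± 15.8 against 174 ± 35.1 in LM, 95.8 ± 16.2 against 209 ± 14.7 in BrM and 87.4 ± 16.5 against 202 ± 32.3 in BoM. H4 was at 18.2 ± 1.19 against 44.5 ± 7.10 in LM, 28.0 ± 0.957 against 50.8 ± 3.67 in BrM and 37.1 ± 4.27 against 96.2 ± 16.2 in BoM. In these 4 types the groups did not overlap in any line. H3 had 1.90 ± 0.392 against 1.94 ± 0.319 in LM, 1.80 ± 0.159 against 1.67 ± 0.419 in BrM and 2.36 ± 0.219 against 2.996 ± 0.973 in BoM. The H3 groups overlapped in every line. Among the 14 H3 genes only HIST1H3H had enough counts to be tested, so H3 is described by few reads. The other sums rest on few genes too, H1 mostly on HIST1H1C (74365 counts), H2A on HIST1H2AC (36105) and H4 on HIST1H4I (21442). Of the tested members, 1 of 2 H1, 2 of 5 H2A and 2 of 5 H4 genes were called higher in all 3 lines. A lack of change is therefore not particular to H3.

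**Figure D1:**
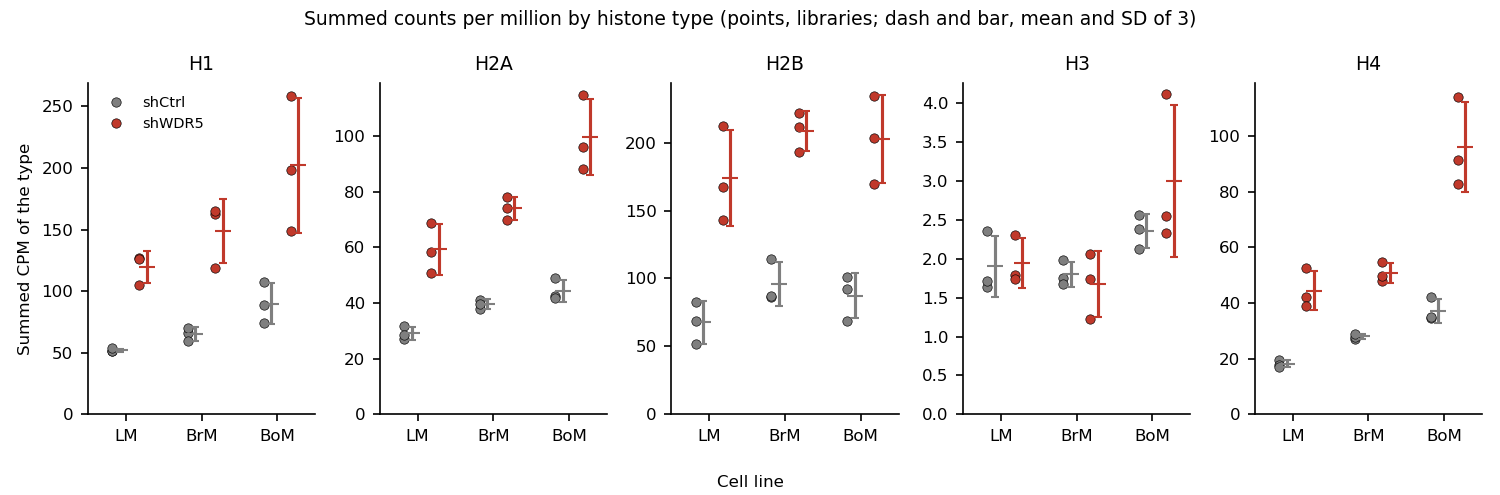
Summed CPM of all members of each histone type (y axis, linear, from 0) in LM, BrM and BoM (x axis). Points are the 3 libraries of a group, grey for shCtrl and red for shWDR5, and the dash and bar give the mean and SD. Red lies above grey without overlap for H1, H2A, H2B and H4, and H3 stays between 1.23 and 4.11 CPM with overlap.

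Single genes were compared with edgeR's quasi-likelihood test in 1 fit of the 18 libraries, and a gene was called at a Benjamini-Hochberg adjusted p under 0.05 over all 16956 genes tested. A gene was tested if its mean count was at least 10 per library. The filter passed 26 members, 23 protein-coding and 3 pseudogenes, by type 13 H2B, 5 H2A, 5 H4, 2 H1 and 1 H3. The member just inside it had 186 counts in total and the one just outside had 179. Counts, medians and directions over the 26 describe the members with enough reads and not the 86.

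With shWDR5, 12 of the 26 were higher in LM, 11 in BrM and 14 in BoM. Over all genes tested, 1.34% were higher in LM, 3.07% in BrM and 4.53% in BoM. These shares depend on the fit: with an offset for GC content they were 8.50%, 16.1% and 14.4%, and 60.1%, 66.8% and 59.9% of all calls were then higher, against 25.5%, 31.8% and 33.0%. With that offset 13, 12 and 15 members were higher and 0 lower. No member was lower in any line, where 3.92%, 6.58% and 9.19% of all genes were lower. At an unadjusted p under 0.05, 0 members were lower in LM, BrM and BoM, and 13, 12 and 15 were higher. No share of all genes at an unadjusted p is given here or below, so such counts have no background to be read against. DESeq2 called 12, 11 and 14 higher and 0 lower. The median log2 fold change of the 26 was 0.71 in LM, 0.57 in BrM and 0.95 in BoM, and that of all genes tested was 0, -0.0096 and 0.011. In all 3 lines, 11 members were higher, against 0.684% of all genes, and 0 were lower, against 2.32%. The 3 lines have separate control libraries, and all share the hairpin.

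**Figure D2:**
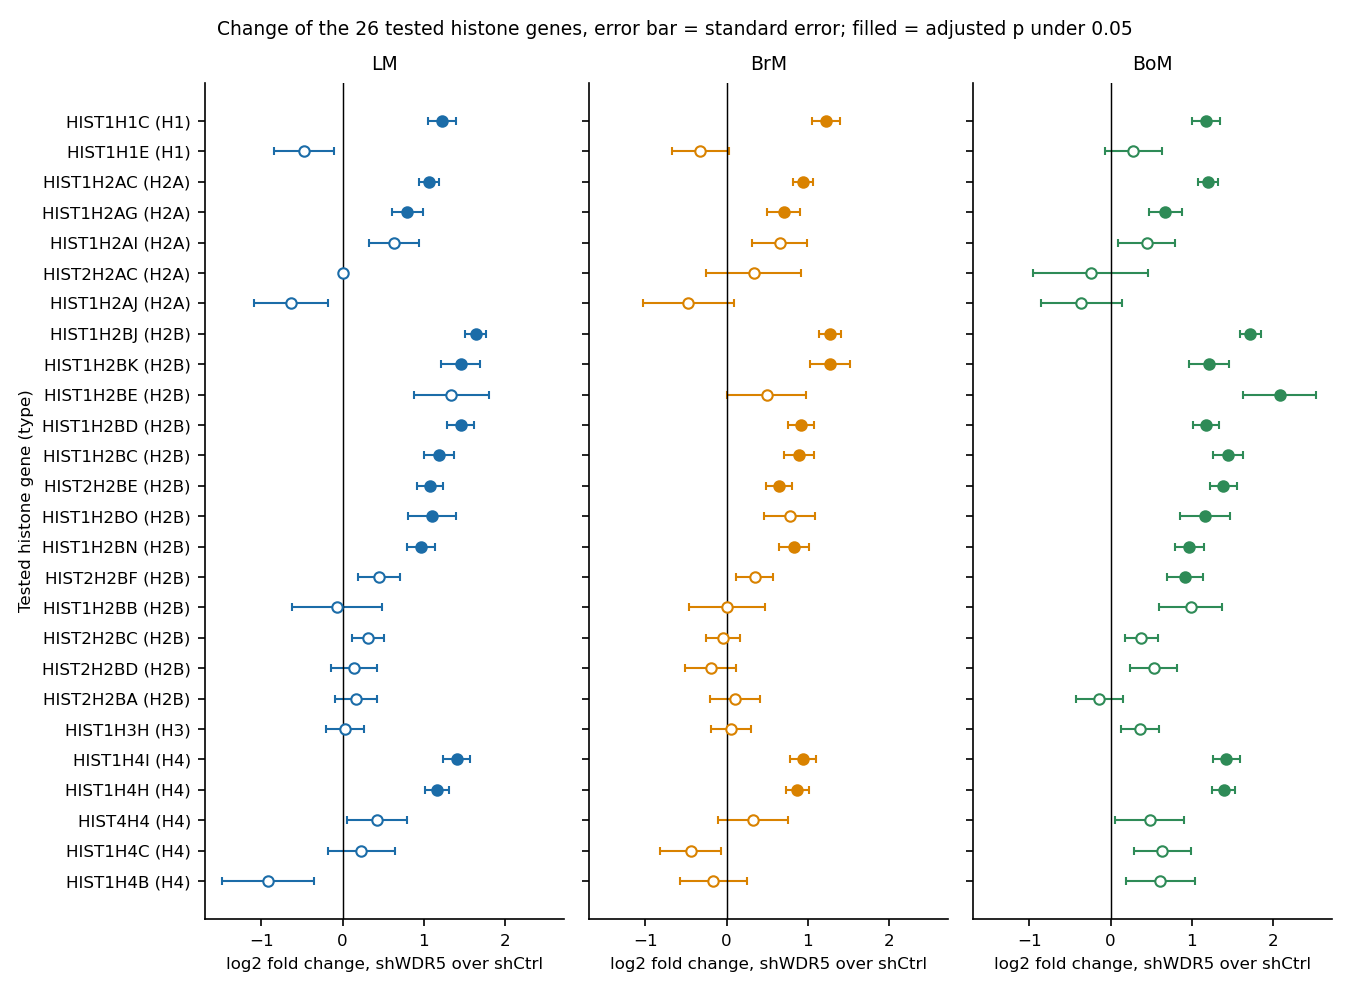
Log2 fold change of shWDR5 over shCtrl (x axis) for the 26 tested members (y axis, grouped by type) in LM, BrM and BoM. Bars are standard errors, left out for HIST2H2AC in LM, whose change of 0.0025 gives no usable one; filled points have an adjusted p under 0.05. All filled points lie to the right of 0, and 11 members are filled in each panel.

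Of the 2 linker histone genes tested, 1 was called in every line. HIST1H1C (ENSG00000187837, chr6:26055740-26056470, minus strand) encodes the linker histone H1.2, which binds where DNA enters and leaves the nucleosome. In LM, HIST1H1C was at 49.6, 50.2 and 52.0 CPM in the shCtrl libraries and at 127, 104 and 125 in the shWDR5 libraries. The BrM libraries had 64.5, 67.6 and 57.5 CPM with shCtrl and 118, 161 and 163 with shWDR5. BoM had 87.3, 105 and 72.4 and 147, 196 and 255 CPM. All shWDR5 libraries were above all shCtrl libraries of their line, and the highest BoM shWDR5 library had 255 CPM. The test gave log2 fold changes of 1.23, 1.22 and 1.18 in LM, BrM and BoM (standard errors 0.17, 0.17 and 0.17, adjusted p = 0.00037, 0.00034 and 0.00019). HIST1H1E, which encodes H1.4, had 1.04 to 1.63 CPM with shCtrl and 0.779 to 1.69 with shWDR5 in LM, 1.64 to 2.66 and 0.876 to 1.99 in BrM, and 1.49 to 2.41 and 1.27 to 3.31 in BoM, with overlap in every line. Its log2 fold changes were -0.48, -0.32 and 0.28 (adjusted p = 0.54, 0.62 and 0.65). The other 6 members with an H1 symbol, HIST1H1PS2 among them, had at most 11 counts over the 18 libraries.

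H2B was the type with the most members tested and the most called, 7 of 13 in LM, 6 in BrM and 9 in BoM. In all 3 lines 6 of 13 H2B genes were called, against 1 of 2 H1, 2 of 5 H2A and 2 of 5 H4 genes. HIST1H2BJ (ENSG00000124635, chr6:27125897-27132795, minus strand), a core histone gene, had the largest mean change of the members called in all lines. In LM, HIST1H2BJ was at 3.65, 3.08 and 2.88 CPM in the shCtrl libraries and at 10.2, 8.79 and 10.7 in the shWDR5 libraries. The BrM libraries had 4.60, 4.85 and 3.96 CPM with shCtrl and 10.4, 10.6 and 11.4 with shWDR5. BoM had 5.78, 4.72 and 4.90 and 15.999, 16.6 and 18.4 CPM. The groups did not overlap, and the shWDR5 libraries of a line lay within a narrow range. It had log2 fold changes of 1.64, 1.27 and 1.72 in LM, BrM and BoM (standard errors 0.13, 0.13 and 0.13, adjusted p = 1.5e-06, 1.8e-05 and 3.5e-07). HIST1H2BK (ENSG00000197903, chr6:27146361-27146855, minus strand) was the most abundant H2B gene per length. In LM, HIST1H2BK was at 28.3, 43.95 and 55.8 CPM in the shCtrl libraries and at 111, 94.5 and 148 in the shWDR5 libraries. The BrM libraries had 52.0, 74.1 and 55.9 CPM with shCtrl and 126, 153 and 161 with shWDR5. BoM had 51.7, 63.5 and 36.0 and 88.2, 124 and 141 CPM. The LM shCtrl libraries of this gene differed among themselves by more than those of HIST1H1C, and the groups still did not overlap. It had log2 fold changes of 1.46, 1.28 and 1.22 in LM, BrM and BoM (standard errors 0.24, 0.24 and 0.24, adjusted p = 0.0018, 0.0033 and 0.0027). In release 44, 57.2% of the 50-base stretches of HIST1H2BK occur in other genes too, so its count is uncertain, and its model of 495 bases may differ from the one counted.

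HIST1H2BD (ENSG00000158373, chr6:26158122-26171349, plus strand) had 6.89 to 8.85 CPM with shCtrl and 16.8 to 25.7 with shWDR5 in LM, 14.4 to 18.7 and 28.8 to 33.4 in BrM, and 12.9 to 17.9 and 34.4 to 39.97 in BoM and log2 fold changes of 1.46, 0.92 and 1.17 in LM, BrM and BoM (standard errors 0.16, 0.16 and 0.16, adjusted p = 7.0e-05, 0.0018 and 0.0001). HIST1H2BC was at 1.75 to 2.53 CPM with shCtrl and 4.49 to 6.59 with shWDR5 in LM, 2.48 to 2.94 and 4.82 to 4.998 in BrM, and 2.03 to 2.65 and 5.06 to 7.24 in BoM, with log2 fold changes of 1.19, 0.89 and 1.45 in LM, BrM and BoM (standard errors 0.18, 0.18 and 0.19, adjusted p = 0.00082, 0.0058 and 6.2e-05). In release 44, 2 genes on the opposite strand overlap HIST1H2BC, and because the strand setting of the counts is not given in the sources used here, reads of HIST1H2BC and of these genes cannot be told apart. HIST2H2BE, on chromosome 1, was at 1.94 to 2.73 CPM with shCtrl and 4.89 to 6.08 with shWDR5 in LM, 2.52 to 3.07 and 4.20 to 4.75 in BrM, and 2.38 to 2.74 and 6.22 to 8.07 in BoM, with log2 fold changes of 1.08, 0.65 and 1.39 in LM, BrM and BoM (standard errors 0.16, 0.16 and 0.16, adjusted p = 0.00054, 0.017 and 2.0e-05). Its call in BrM was lost when BrM shCtrl replicate 3 (adjusted p = 0.083), BrM shWDR5 replicate 2 (0.069) or BrM shWDR5 replicate 3 (0.057) was left out of the edgeR fit, and when all libraries were thinned to the smallest (0.11). HIST1H2BN had 1.57 to 1.605 CPM with shCtrl and 2.89 to 3.44 with shWDR5 in LM, 0.950 to 1.29 and 1.92 to 2.16 in BrM, and 1.38 to 2.05 and 2.86 to 4.07 in BoM and log2 fold changes of 0.97, 0.83 and 0.97 in LM, BrM and BoM (standard errors 0.17, 0.19 and 0.18, adjusted p = 0.0026, 0.0097 and 0.0013), and its BrM call was lost without BrM shCtrl replicate 3 (adjusted p = 0.051).

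**Figure D3:**
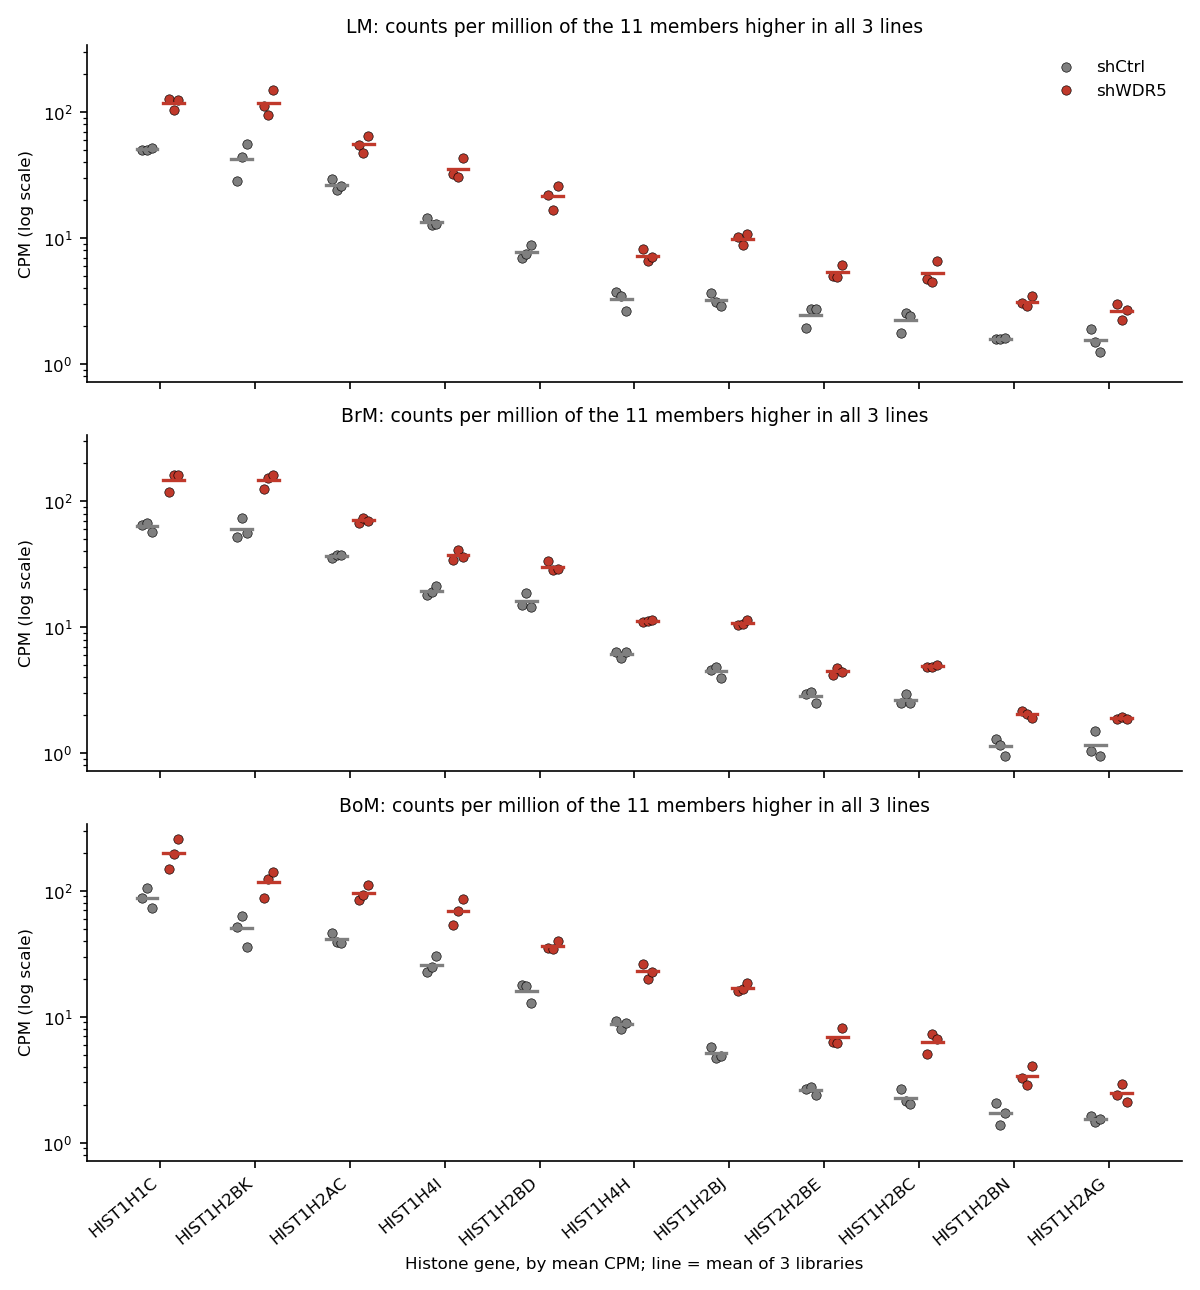
CPM (y axis, log scale) of the 11 members higher in all 3 lines (x axis, by mean level), 1 panel per line. Points are libraries, grey for shCtrl and red for shWDR5, and short lines are means of 3. In each panel and for each gene the 3 red points lie above the 3 grey points, from HIST1H1C and HIST1H2BK at the top to HIST1H2AG at the bottom. The 11 were picked for being called higher in all 3 lines, which favours this separation. Of the 26 tested members, 16, 12 and 14 had all shWDR5 libraries above all shCtrl libraries in LM, BrM and BoM. In 1, 0 and 0 members all shWDR5 libraries lay below. Over all genes tested, 10.57%, 16.02% and 12.14% had them all above, and 13.70%, 18.53% and 16.57% all below.

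Other H2B genes were called in fewer lines, and they were chosen after their values were seen. HIST1H2BO had 0.959 to 1.44 CPM with shCtrl and 1.75 to 3.77 with shWDR5 in LM, 0.925 to 1.39 and 1.28 to 2.74 in BrM, and 1.001 to 1.51 and 2.505 to 3.77 in BoM and log2 fold changes of 1.10, 0.78 and 1.16 (adjusted p = 0.036, 0.12 and 0.017), so that it was called in LM and BoM. Either call could be lost with a library left out, in LM without LM shCtrl replicates 1, 2 or 3 or LM shWDR5 replicates 1 or 3 (adjusted p = 0.0503 to 0.15) and in BoM without BoM shCtrl replicate 1 or BoM shWDR5 replicate 3 (adjusted p = 0.078 to 0.081). It was called in BrM as well with a replicate block (adjusted p = 0.037), with the GC offset (0.031), with both (0.0036) and without a filter on low counts (0.045). HIST1H2BE, at 0.137 to 0.232 CPM with shCtrl and 0.302 to 0.679 with shWDR5 in LM, 0.231 to 0.380 and 0.336 to 0.525 in BrM, and 0.149 to 0.375 and 0.665 to 1.83 in BoM, and HIST2H2BF, at 0.513 to 0.613 CPM with shCtrl and 0.629 to 0.901 with shWDR5 in LM, 0.925 to 1.78 and 1.35 to 2.04 in BrM, and 1.48 to 1.64 and 2.27 to 3.23 in BoM, were called in BoM with log2 fold changes of 2.08 and 0.92. HIST1H2BE had 69 of its 294 counts in BoM shWDR5 replicate 1, and its log2 fold change in BoM was 1.38 without that library and up to 2.57 without another. It was called in LM too without BoM shWDR5 replicate 1 (adjusted p = 0.04). A gene on the opposite strand overlaps each of HIST1H2BE and HIST2H2BF, and HIST2H2BF shares 50.6% of its 50-base stretches with other genes. HIST2H2BA, the H2B member with the smallest mean change, is a pseudogene, all of whose 50-base stretches occur in other genes. It had 1.12 to 1.48 CPM with shCtrl and 1.07 to 1.63 with shWDR5 in LM, 0.488 to 1.27 and 0.790 to 0.944 in BrM, and 0.891 to 1.48 and 0.861 to 1.19 in BoM, with overlap in each line, and log2 fold changes of 0.16, 0.10 and -0.14.

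Among H2A genes, HIST1H2AC (ENSG00000180573, chr6:26124145-26139116, plus strand) was the most abundant per length. In LM, HIST1H2AC was at 29.2, 24.3 and 26.1 CPM in the shCtrl libraries and at 54.5, 47.3 and 64.3 in the shWDR5 libraries. The BrM libraries had 35.5, 37.5 and 37.4 CPM with shCtrl and 67.0, 74.0 and 70.5 with shWDR5. BoM had 46.1, 39.3 and 38.7 and 84.4, 92.3 and 110.1 CPM. The groups did not overlap, and the replicates of a group were close. It had log2 fold changes of 1.06, 0.94 and 1.21 in LM, BrM and BoM (standard errors 0.12, 0.12 and 0.12, adjusted p = 9.6e-05, 0.00017 and 5.4e-06). A gene without a symbol overlaps HIST1H2AC on the same strand in release 44, so its count is uncertain where they overlap. HIST1H2AG, the member of the 11 with the smallest mean change, was named after its values were seen. It had 1.25 to 1.90 CPM with shCtrl and 2.25 to 2.97 with shWDR5 in LM, 0.950 to 1.497 and 1.86 to 1.96 in BrM, and 1.46 to 1.63 and 2.11 to 2.90 in BoM and log2 fold changes of 0.80, 0.70 and 0.67 (adjusted p = 0.02, 0.038 and 0.033), and its calls were the least stable of the 11, at least 1 being lost in 13 of 18 fits with a library removed. The call in LM was lost without LM shCtrl replicates 2 or 3 or LM shWDR5 replicate 1 (adjusted p = 0.073 to 0.12), that in BrM without BrM shCtrl replicates 1 or 3 or BrM shWDR5 replicates 1, 2 or 3 (adjusted p = 0.059 to 0.15) and that in BoM without BoM shCtrl replicates 1, 2 or 3 or BoM shWDR5 replicates 1 or 2 (adjusted p = 0.052 to 0.12), each library alone. HIST2H2AC had 0.0373 to 0.266 CPM with shCtrl and 0.101 to 0.394 with shWDR5 in LM, 0.182 to 0.634 and 0.117 to 0.607 in BrM, and 0.125 to 0.446 and 0.0783 to 0.384 in BoM, overlapping in each line, and log2 fold changes of 0.0025, 0.33 and -0.24. The remaining tested H2A genes, HIST1H2AI and HIST1H2AJ, were not called in any line, and more than 60% of the 50-base stretches of each occur elsewhere.

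Many genes of the clusters encode the same H4 protein. HIST1H4I (ENSG00000276180, chr6:27139282-27139678, plus strand) had the highest level per length. In LM, HIST1H4I was at 14.4, 12.7 and 12.8 CPM in the shCtrl libraries and at 32.1, 30.7 and 43.2 in the shWDR5 libraries. The BrM libraries had 18.1, 19.0 and 21.2 CPM with shCtrl and 34.5, 41.5 and 36.2 with shWDR5. BoM had 22.7, 24.7 and 30.2 and 53.5, 69.3 and 85.6 CPM. The groups did not overlap in any line. It had log2 fold changes of 1.41, 0.95 and 1.43 in LM, BrM and BoM (standard errors 0.16, 0.16 and 0.16, adjusted p = 9.7e-05, 0.0016 and 1.6e-05). HIST1H4H (ENSG00000158406, chr6:26277609-26285638, minus strand) was at 2.64 to 3.73 CPM with shCtrl and 6.53 to 8.20 with shWDR5 in LM, 5.66 to 6.38 and 10.97 to 11.5 in BrM, and 7.97 to 9.28 and 19.8 to 26.4 in BoM, with log2 fold changes of 1.16, 0.87 and 1.40 in LM, BrM and BoM (standard errors 0.15, 0.14 and 0.14, adjusted p = 0.00017, 0.0011 and 5.4e-06). A gene on the opposite strand overlaps it. HIST1H4C was at 0.298 to 0.387 CPM with shCtrl and 0.392 to 0.507 with shWDR5 in LM, 0.437 to 1.17 and 0.533 to 0.775 in BrM, and 0.726 to 1.29 and 0.861 to 2.31 in BoM, with log2 fold changes of 0.23, -0.44 and 0.64 (adjusted p = 0.83, 0.51 and 0.25), and HIST1H4B at 0.112 to 0.347 CPM with shCtrl and 0.106 to 0.151 with shWDR5 in LM, 0.411 to 1.04 and 0.438 to 0.711 in BrM, and 0.450 to 0.564 and 0.371 to 1.19 in BoM, with -0.92, -0.16 and 0.61 (adjusted p = 0.41, 0.86 and 0.37). Mean levels per kilobase of annotated exon over the 18 libraries were 180.5 CPM for HIST1H2BK, 152 for HIST1H1C, 84.3 for HIST1H4I, 32.6 for HIST1H2AC and 1.32 for HIST1H3H. HIST4H4, on chromosome 12, was also tested and not called. For H3, HIST1H3H was at 1.22 to 1.78 CPM with shCtrl and 1.36 to 1.75 with shWDR5 in LM, 1.10 to 1.40 and 0.876 to 1.52 in BrM, and 1.73 to 2.08 and 1.80 to 3.46 in BoM, overlapping in each line, with log2 fold changes of 0.028, 0.056 and 0.37 (adjusted p = 0.97, 0.92 and 0.32).

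The 60 members below the filter included 19 with no count in any library, and 40 members had at most 10 counts over the 18 libraries, 28 of them protein-coding. Those with the most counts were HIST1H2BL (179), HIST2H4A (170), HIST1H2AH (162), HIST1H4A (138) and HIST1H3A (103). Each was at or below 0.884 CPM in every library, so at this depth a difference of the size of the called members was not assessed for them. None of the 4 HIST3 members passed the filter, against 19 of 66 HIST1, 6 of 15 HIST2 and the single HIST4 member.

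Counts were unevenly spread along chromosome 6, where 64 members lie. From HIST1H4D to HIST1H2BI (chr6:26188710-26273412, 84.7 kb), 18 consecutive members, 15 of them protein-coding, had 12 counts in all over the 18 libraries, at most 3 each and 10 of them 0. The members on either side, HIST1H2BE and HIST1H4H, had 294 and 6365 counts. The 3 other genes of the table in this stretch had at most 2 counts each. A shorter stretch of 5 members, from HIST1H2BPS2 to HIST1H4L (chr6:27864062-27873534, 9.47 kb), had 2 counts in all. It holds HIST1H1B, HIST1H2AL, HIST1H3I and HIST1H4L and lies between HIST1H2BN, with 1524 counts, and HIST1H3J, with 96. At the start of the cluster, 7 members from HIST1H2AA to HIST1H1A (chr6:25723397-26017787, 294 kb), 3 of them protein-coding, had 11 counts, while TRIM38, which lies among them, had 34146. The stretches were chosen after their values were seen, and their cause was not tested.

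**Figure D4:**
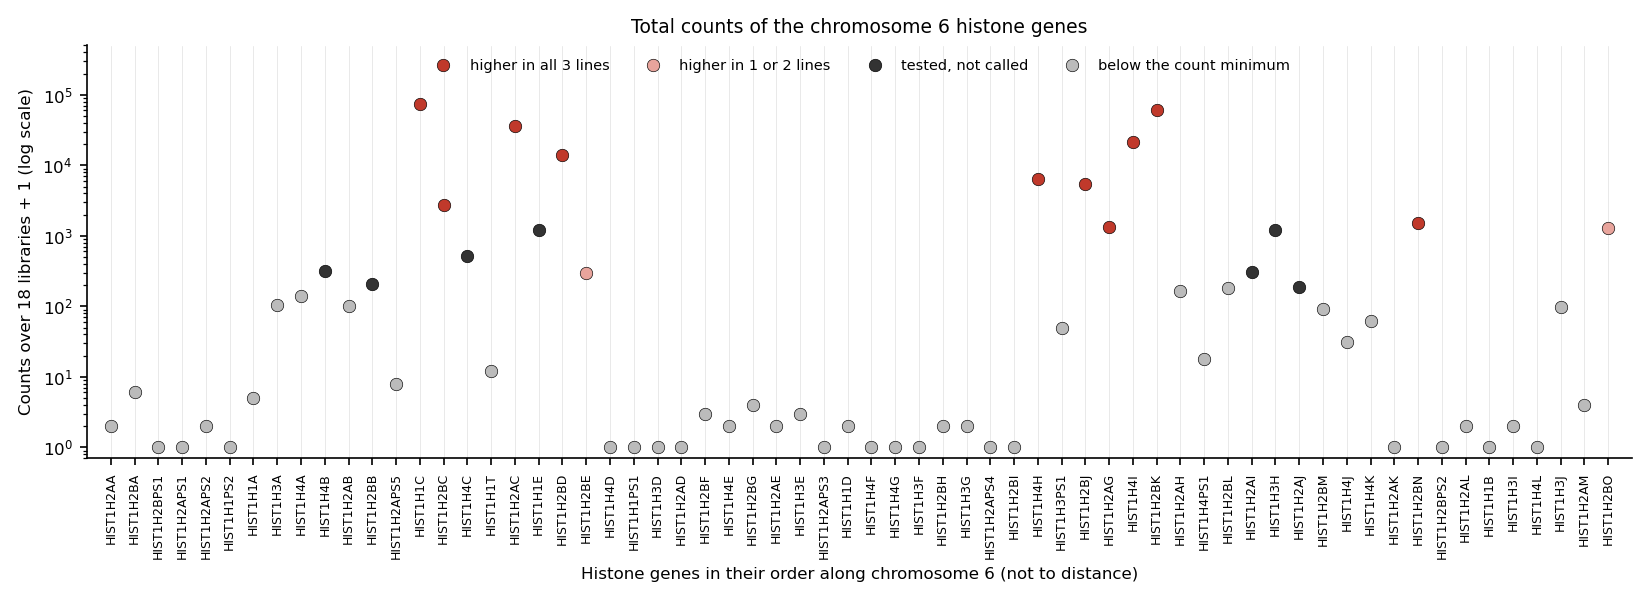
Total counts over 18 libraries plus 1 (y axis, log scale) of the 64 chromosome 6 members in their order (x axis, not to distance). Red points were higher in all 3 lines, pink in 1 or 2, black were tested and not called, and grey were below the count minimum. The 18 members from HIST1H4D to HIST1H2BI lie at the bottom, between HIST1H2BE and HIST1H4H.

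Annotated transcripts that run more than 100 bases past the stem-loop, or that lack it, were listed for 18 of the 66 protein-coding members. Of these 18, 11 passed the filter and 7 were called in all 3 lines: HIST1H2AC, HIST1H2BC, HIST1H2BD, HIST1H2BJ, HIST1H2BN, HIST1H4H and HIST2H2BE. Of the other 48, 12 passed and 4 were called in all 3 lines: HIST1H1C, HIST1H2AG, HIST1H2BK and HIST1H4I. The last 4 hold HIST1H1C, HIST1H2BK and HIST1H4I, which are among the 4 members with the most counts. A count per gene does not say which end the reads came from. The stem-loop form of HIST1H2BK and HIST1H2BJ was found in 10 members, of which 4 were tested and 4 called in all lines. The form of HIST1H1C was found in 36, of which 12 were tested and 4 called in all lines. Other forms with tested members had 1 of 4, 1 of 3, 1 of 1 and 0 of 1 called in all lines. Of all 26 tested members, 11 were called in all lines. The tested carriers of the first form, HIST1H2BJ, HIST1H2BK, HIST1H2BC and HIST1H2BD, are all H2B genes, so nothing is known of this form in other types. Of all 13 tested H2B genes, 6 were called in all lines. The called H2B genes with another form were HIST1H2BN and HIST2H2BE. A difference between forms was not tested.

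The 250 bases before the start of 61 members were read from the RefSeq promoter table (GRCh38.p14). They were searched on both strands for the TATA box as TATAAA, for the CCAAT box, an upstream element of many histone promoters, as CCAAT, and for the octamer known from H2B promoters as ATTTGCAT. The TATA letters on 1 strand can overlap those on the other. CCAAT was in 51 of the 61 (83.6%) and in 33.0% of 27305 promoters of the same length. TATAAA was in 40 (65.6%, against 11.1%). The octamer was in 26 (42.6%, against 1.66%), among them 14 of 18 H2B and 12 of 43 other promoters. Of the 11 members higher in all lines, 10 had CCAAT, 7 TATAAA and 6 the octamer, and of the other 11 tested members with a promoter, 9, 10 and 6. Promoters are shown for the 3 called genes with the highest level per length, which are of different types, and for HIST1H2BJ, which had the largest mean change, 5′ to 3′ in the direction of the gene, with matches in capitals.
HIST1H1C (chr6:26056471-26056720, minus strand): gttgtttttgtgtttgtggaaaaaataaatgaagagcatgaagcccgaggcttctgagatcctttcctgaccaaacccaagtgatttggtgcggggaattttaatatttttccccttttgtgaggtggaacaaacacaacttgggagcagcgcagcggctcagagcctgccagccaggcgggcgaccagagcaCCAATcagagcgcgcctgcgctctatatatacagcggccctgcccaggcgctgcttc
HIST1H2BK (chr6:27146859-27147108, minus strand): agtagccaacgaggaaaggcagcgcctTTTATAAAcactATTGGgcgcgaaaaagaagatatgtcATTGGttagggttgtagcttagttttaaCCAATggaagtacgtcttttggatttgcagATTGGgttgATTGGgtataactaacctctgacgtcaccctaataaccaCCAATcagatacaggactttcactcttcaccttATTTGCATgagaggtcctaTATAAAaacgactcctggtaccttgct
HIST1H2BJ (chr6:27132796-27133045, minus strand): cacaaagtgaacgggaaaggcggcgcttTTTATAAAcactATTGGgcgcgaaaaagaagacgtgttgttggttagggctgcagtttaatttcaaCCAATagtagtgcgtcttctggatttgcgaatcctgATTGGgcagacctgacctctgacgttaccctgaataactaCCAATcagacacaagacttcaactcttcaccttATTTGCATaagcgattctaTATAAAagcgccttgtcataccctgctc
HIST1H4I (chr6:27139032-27139281, plus strand): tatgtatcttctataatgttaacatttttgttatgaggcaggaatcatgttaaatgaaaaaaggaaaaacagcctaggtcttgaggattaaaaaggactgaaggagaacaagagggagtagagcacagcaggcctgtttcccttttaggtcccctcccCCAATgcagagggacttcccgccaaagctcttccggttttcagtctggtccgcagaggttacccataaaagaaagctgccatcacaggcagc
HIST1H2BK and HIST1H2BJ have the octamer 46 and 47 bases before the start and TATAAA 27 and 28 bases before it, and HIST1H1C and HIST1H4I have CCAAT 57 and 92 bases before it and neither of the other motifs. Divergent neighbours can share a window, as HIST1H2AC with HIST1H2BC and HIST1H2AG with HIST1H2BJ, and HIST1H2AD and HIST1H3D have the same window. The octamers of the 26 members are therefore 17 distinct sites, those of the 6 called members 4, and 9 of the 12 members outside H2B hold a site that also lies in an H2B window. Counts of the other motifs were not reduced to distinct sites. A match is a description of these letters only.

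Between lines, no member's response differed at an adjusted p under 0.05. Over all genes, 0% differed between BrM and LM, 0% between BoM and LM and 0.0059% between BoM and BrM. At an unadjusted p under 0.05, 1, 1 and 6 of the 26 members differed, and DESeq2 called 0. The share of all genes at that unadjusted p is not given, so the 1, 1 and 6 cannot be judged against it. The member with the smallest p was HIST1H2BD for BrM against LM, with a log2 fold change lower by 0.54 in BrM (difference -0.54, standard error 0.23, adjusted p = 1.00 from edgeR). For BoM against LM it was HIST1H4B, with a difference of 1.53 (standard error 0.71, adjusted p = 0.92), and for BoM against BrM it was HIST2H2BE, with 0.74 (standard error 0.23, adjusted p = 1.00). The median difference of the 26 was -0.13, 0.11 and 0.40 for the 3 pairs, where each line enters 2 of them.

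Few genes of histone mRNA transcription and 3′ end formation were called in any line. Of 21 such genes, all tested, 0 were higher and 1 lower (4.76%) in LM, 0 and 1 (4.76%) in BrM, and 2 and 2 (9.52% each) in BoM, where 3.92%, 6.58% and 9.19% of all genes were lower and 1.34%, 3.07% and 4.53% higher. The shares lower were near those of all genes, and the share higher in BoM rests on 2 genes. No direction of the list is read from these calls. At an unadjusted p under 0.05, 3, 5 and 7 differed, and DESeq2 called 2, 3 and 5. The 21 had median log2 fold changes of 0.12, 0.084 and 0.096. SLBP was at 95.4 to 118 CPM with shCtrl and 132 to 144 with shWDR5 in LM, 85.4 to 93.7 and 110.0 to 122 in BrM, and 118 to 136 and 138 to 204 in BoM, with log2 fold changes of 0.38, 0.34 and 0.44 in LM, BrM and BoM (standard errors 0.12, 0.12 and 0.12, adjusted p = 0.07, 0.075 and 0.019), and passed the test in BoM, though not without BoM shCtrl replicates 1 or 2 or BoM shWDR5 replicate 3 (adjusted p = 0.052 to 0.104). It also passed in LM without BoM shWDR5 replicates 1 or 3, BrM shWDR5 replicate 1 or LM shCtrl replicate 1 (adjusted p = 0.027 to 0.0497) and in BrM without BoM shWDR5 replicates 1 or 3 (adjusted p = 0.03 to 0.034). NPAT, at 51.0 to 63.0 CPM with shCtrl and 61.8 to 69.2 with shWDR5 in LM, 48.5 to 57.6 and 51.8 to 72.8 in BrM, and 31.3 to 40.2 and 47.0 to 57.7 in BoM, had log2 fold changes of 0.27, 0.13 and 0.50 in LM, BrM and BoM (standard errors 0.14, 0.14 and 0.14, adjusted p = 0.29, 0.62 and 0.022), and also passed in BoM, though not without BoM shCtrl replicate 2 or BoM shWDR5 replicate 1 (adjusted p = 0.084 to 0.12). CPSF2 and CPSF3, which serve histone cleavage and ordinary polyadenylation, were named after their values were seen. CPSF2 had log2 fold changes of -0.59, -0.31 and -0.49 (adjusted p = 0.0037, 0.079 and 0.0059) and CPSF3 of -0.29, -0.34 and -0.34 (adjusted p = 0.082, 0.027 and 0.019). The calls of CPSF2 in LM and BoM held with any library left out, it was also called in BrM without BrM shWDR5 replicate 1 (adjusted p = 0.029), and those of CPSF3 were lost without BrM shCtrl replicates 1 or 3 or BrM shWDR5 replicates 2 or 3 (adjusted p = 0.085 to 0.11) in BrM and BoM shCtrl replicate 3 or BoM shWDR5 replicate 1 (adjusted p = 0.065 to 0.083) in BoM.

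Of 24 genes of DNA replication and S phase, all tested, 1 was higher in each line (4.17%) and 1 lower in BoM (4.17%). Over all genes tested, 1.34%, 3.07% and 4.53% were higher in LM, BrM and BoM, and 3.92%, 6.58% and 9.19% were lower. These shares stand beside every list of this paragraph, and 1 of 24 is near or below them in BrM and BoM. At an unadjusted p under 0.05, 1, 4 and 2 differed, and DESeq2 called 1, 1 and 2. The helicase gene MCM4 was higher in each line (log2 fold changes 0.33, 0.32 and 0.30, adjusted p = 0.03, 0.026 and 0.025 from edgeR), and MCM6 was lower in BoM (-0.31, adjusted p = 0.032 from edgeR). The MCM4 call was lost in LM without LM shCtrl replicates 2 or 3 or LM shWDR5 replicates 1 or 2 (adjusted p = 0.076 to 0.14), in BrM without BrM shCtrl replicates 1 or 2 or BrM shWDR5 replicates 2 or 3 (adjusted p = 0.072 to 0.11) and in BoM without BoM shCtrl replicate 2 or BoM shWDR5 replicates 2 or 3 (adjusted p = 0.0502 to 0.12), and that of MCM6 without BoM shCtrl replicates 1, 2 or 3 or BoM shWDR5 replicates 1 or 3 (adjusted p = 0.052 to 0.103). MCM6 was also called in BrM without BoM shWDR5 replicate 1 (adjusted p = 0.047). The median of the 24 was 0.060 in LM, 0.060 in BrM and 0.029 in BoM. Of 10 mitosis genes, 0 were called in LM, BrM or BoM by edgeR, with 1, 2 and 0 at an unadjusted p under 0.05, and 0 by DESeq2. Histone variants made outside S phase from polyadenylated mRNA gave 1 higher of 11 in each line, H3F3B, which encodes H3.3, at 565 to 667 CPM with shCtrl and 842 to 958 with shWDR5 in LM, 581 to 664 and 883 to 908 in BrM, and 636 to 698 and 792 to 1140 in BoM (log2 fold changes 0.55, 0.50 and 0.54, adjusted p = 0.0074, 0.0098 and 0.0036), and 1 lower in BoM, H1F0. Of 11 histone chaperone genes, 0 were called in LM (3 at an unadjusted p under 0.05, 1 by DESeq2), and 3 were higher in BrM and in BoM (27.3% each). DAXX, a chaperone of H3.3, and NAP1L1 were higher in both, NASP in BrM and ASF1A in BoM, with log2 fold changes of 0.34 to 0.62. With any library left out the calls of H3F3B in each line and of H1F0 and ASF1A in BoM held. DAXX was not called without BrM shCtrl replicates 2 or 3 or BrM shWDR5 replicates 2 or 3 (adjusted p = 0.058 to 0.086) in BrM and BoM shCtrl replicate 1 or BoM shWDR5 replicate 2 (adjusted p = 0.072 to 0.095) in BoM, NASP not without BrM shCtrl replicate 3 or BrM shWDR5 replicate 3 (adjusted p = 0.062 to 0.079) in BrM. NASP was also called in LM without LM shWDR5 replicate 3 (adjusted p = 0.037) and in BoM without BoM shWDR5 replicate 1, BrM shWDR5 replicate 1 or LM shWDR5 replicate 3 (adjusted p = 0.03 to 0.045). NAP1L1 lost its call in 9 of 18 such fits in BrM and 4 in BoM, with an adjusted p up to 0.16 and 0.12. MCM6, H1F0 and these chaperones were named after their values were seen.

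RNAs that carry no poly(A) tail give a measure of such RNA in the libraries. Of 13 listed genes, 2, both signal recognition particle RNA genes, had enough counts to be tested, and 0 were called in any line by edgeR or DESeq2, with 0 at an unadjusted p under 0.05. Their median log2 fold changes were -0.11 in LM, -0.61 in BrM and -0.20 in BoM. The summed level of the 13 was 297 to 394 CPM with shCtrl and 207 to 414 with shWDR5 in LM. It was 265 to 328 and 106 to 240 in BrM, without overlap, and 133 to 397 and 119 to 354 in BoM. The 2 tested genes, RN7SL1 and RN7SL2, made nearly all of this sum. RMRP, entered 2 times, RN7SK, RPPH1, RNU7-1 and SCARNA2 had 0 counts, so the list says little of other RNA without a tail. The part of such RNA in the histone result was not tested beyond these values.

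**Figure D5:**
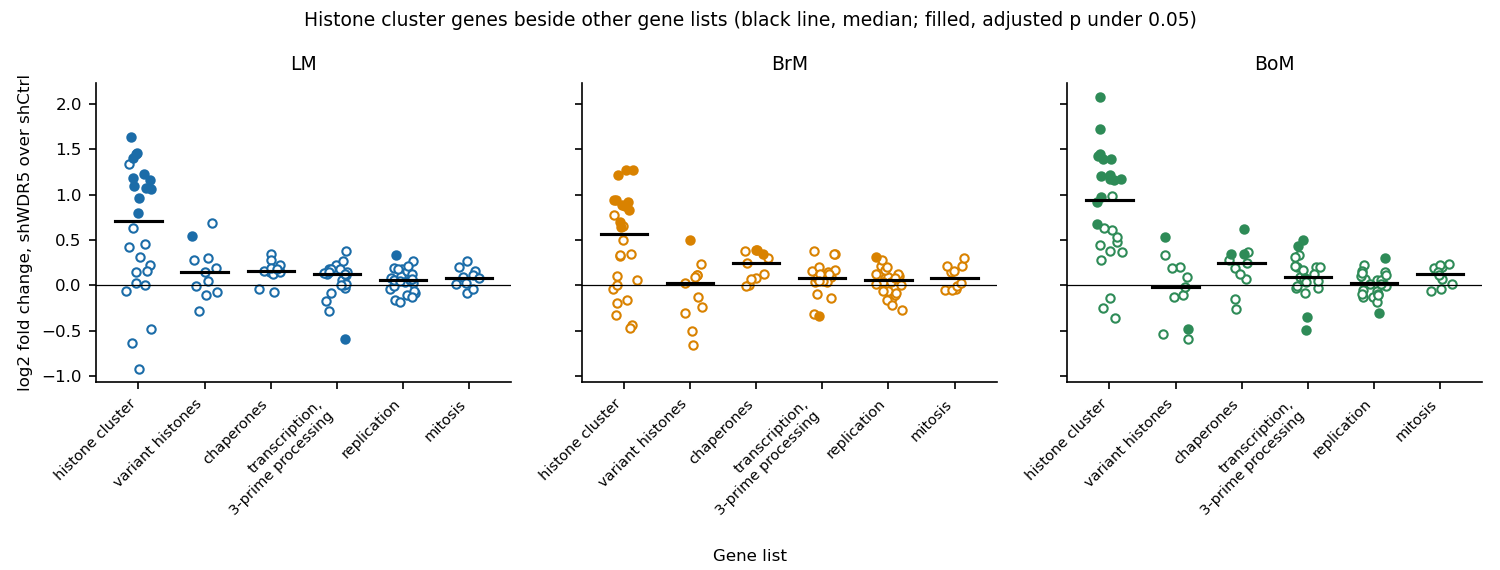
Log2 fold change of shWDR5 over shCtrl (y axis) of the tested histone cluster genes and of 5 gene lists (x axis) in LM, BrM and BoM. Each point is a gene, filled at an adjusted p under 0.05, and the black line is the list's median. The histone cluster medians of 0.71, 0.57 and 0.95 lie above those of the other lists, which span -0.022 to 0.25.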

How the data were processed

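RNA-seq libraries from LM, BrM and BoM with shCtrl or shWDR5 were grouped by their titles. Labels of the source material name other lines for most libraries and were not used. The authors aligned stranded, poly(A)-selected paired-end reads to hg38 with STAR 2.7.0 and deposited raw counts per gene, without normalization. Columns of the authors' own DESeq2 fold changes and adjusted p-values were not used. Spike-ins were added, but 0 spike-in rows are in the table, so edgeR's TMM factors were used. Unused sample columns numbered 0, and 21257 of 58815 genes have no symbol. Here 6 groups were fitted together by edgeR 4.0.16 in R 4.3.3 (quasi-likelihood, 12 residual degrees of freedom), on genes with a mean of at least 10 counts. P-values measure the spread between passages. No replicate pair looked like 1 library deposited more than once (chi-square per gene at least 4.04). Positions and lengths are from GENCODE release 44 (GRCh38), which may differ from the models counted. The members and lists were chosen with earlier results of these data known. Named members were the 10 with the largest mean change among those called the same way in all lines, the most abundant and least changed of each type, the smallest p between lines and the 5 largest counts below the filter, with WDR5, SLBP, NPAT and list genes called in all lines. DESeq2 1.42.0, other filters and scalings, thinning, a GC offset, a replicate block and leaving out each library were the alternatives. The fit was tested on simulated data.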

Additional observations from a re-analysis of the deposited data

How the results depend on the processing

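The count of members higher in all 3 lines was 8 to 12 over all alternatives, against 11, and 0 members were lower in any line under any of them. With edgeR's RLE factors and with DESeq2 the same 11 members were called. Restricted to members that share under 50% of their 50-base stretches with other genes and overlap no gene on the opposite strand (16 of the 26), 8 were higher in all lines, and 9 in BoM, against 14. Leaving out each library in turn gave 10 to 13 members higher in LM, 8 to 11 in BrM, 12 to 14 in BoM and 8 to 11 in all lines, where the lowest value was without BrM shCtrl replicate 3. The median log2 fold change then ranged from 0.61 to 0.87 in LM, 0.47 to 0.72 in BrM and 0.80 to 1.01 in BoM.

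Shares of all genes that were higher moved more than the members' counts. They were 3.51%, 6.49% and 9.32% in LM, BrM and BoM with the replicate block, 15.4%, 23.4% and 21.1% with the block and GC offset, and 2.88%, 4.98% and 7.23% with DESeq2. Leaving out 1 library gave 0.372% to 2.21%, 1.01% to 4.18% and 1.62% to 6.56%, the lowest without LM shWDR5 replicate 1, BrM shWDR5 replicate 3 and BoM shCtrl replicate 2. Of all calls in LM, BrM and BoM, 38.5%, 41.3% and 43.2% were higher with DESeq2, 37.0%, 40.2% and 42.7% with the block and 64.9%, 69.9% and 63.6% with the block and GC offset.

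The median depends on how many low-count members enter and on the rule that admits them. With the HTSFilter criterion it was 1.13 in LM and 0.85 in BrM. That criterion keeps a gene by its highest library, so a member can pass only through the group where it is high. This favours a larger median, so these values add no support. With filterByExpr, 30 members gave 0.44 in LM, 0.43 in BrM and 0.66 in BoM. Without a filter, 67 members gave 0.0020, 0.060 and 0.37. With groups under 3 counts set to 3, and members at or under 3 in both groups left out, the medians without a filter were 0.26, 0.34 and 0.55. In BrM it was 0.67 with the replicate block and GC offset together and 0.67 for the members with little shared sequence.

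Same-numbered libraries correlated in their deviations from -0.047 to 0.41 (mean 0.20, 6 of 9 over 0.1), against a mean of -0.11 for different numbers (4 of 18 over 0.1). Libraries of the same number were thus more alike on average, though not in every pair. The deviations are from the mean of each group, so the means for same and different numbers are not independent. The labels do not say that the numbers are pairs, so the main fit has no block and the replicate block is an alternative. With the replicate block, 12, 12 and 14 members were higher in LM, BrM and BoM and 12 in all lines, HIST1H2BO being the one added.

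HIST2H2BA in BoM, -0.14 and not called, was 0.12 with the GC offset and 0.11 with the block and GC offset. With 1 library left out, 1731 values of named genes kept direction and call, 72 lost their call, 13 gained one and 20, none of them called, changed sign. The last are from log2 fold changes that then ranged from -0.33 to 0.57 for HIST2H2AC and -0.076 to 0.24 for HIST1H3H in LM, from -0.00021 to 1.11 for HIST2H2AC, -0.14 to 0.59 for HIST2H2BA, -0.069 to 0.20 for HIST1H3H, -0.49 to 0.36 for HIST1H4B and -0.049 to 0.21 for NPAT in BrM, and from -0.10 to 0.59 for HIST1H1E, -0.69 to 0.11 for HIST2H2AC and -0.26 to 0.092 for HIST2H2BA in BoM. Under the other settings 913 kept both, 32 lost a call and 49 gained one. MCM4, CPSF3 and MCM6 lost all their calls without a filter. Depth limits the 60 members below the filter, and for some of them sequence shared with other genes may limit the count as well.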
